A study of Mus musculus with 12 samples.

Results

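Interferon-inducible GTPases are proteins that hydrolyse GTP and that cells make when they sense interferon. The set described here holds 10 mouse genes. It consists of guanylate-binding proteins (Gbp2, Gbp3 and Gbp7), immunity-related GTPases (Igtp, Irgm1, Irgm2, Iigp1 and Ifi47) and myxovirus resistance genes (Mx1 and Mx2). The genes were chosen by name, with no rule on their measured levels, but with earlier results of these data known. They are 10 of the 18675 genes that had at least 1 read in these libraries, and 10 of the 12550 that passed the filter on low counts. All members but Gbp2 are on a list of genes that the study drew from these same libraries as induced by tumor myeloid cells, so their direction in the comparison of the primed groups is not independent evidence.

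The libraries are bulk RNA-seq of 4T1, a mammary carcinoma cell line of the BALB/c mouse, in 3 groups of 4. In Tu-Gr1+CD11b+-primed 4T1 (labelled 4T1_MDSC_T, here Tu-primed), the line had shared a well for 48 h with Gr1+ cells from the tumors of mice that carried 4T1, with a membrane of 0.4 µm pores between the cells. In Spl-Gr1+CD11b+-primed 4T1 (4T1_MDSC_S, here Spl-primed), the Gr1+ cells came from the spleens of such mice. Parental 4T1 (labelled 4T1) is the same line without Gr1+ cells. Both kinds of Gr1+ cell were taken with a magnetic column on day 21 after tumor injection, and all 3 groups are 1 cell line, with no genetic change named in the labels. The labels do not say whether the 4 replicates of a group are separate cultures or separate donor mice, so the p-values measure the spread between these libraries, which may be technical. In a bulk library, more cells that express a gene and more RNA per cell cannot be told apart.

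The members belong to 3 families that act in cell-autonomous immunity. Guanylate-binding proteins assemble on the membranes of vacuoles that hold microbes and on exposed bacteria, and they promote the opening of such compartments and the activation of inflammasomes. Immunity-related GTPases divide into effectors such as Iigp1 (Irga6), which load onto parasite vacuoles, and the IRGM proteins Irgm1, Irgm2 and Igtp (Irgm3), which sit on the membranes of the cell itself and hold the effectors in check. Mx proteins are dynamin-like GTPases that block virus replication, and most inbred mouse strains, BALB/c among them, carry defective Mx1 alleles. Interferons act on genes of this kind through 2 DNA elements: the interferon-stimulated response element (ISRE), which interferon regulatory factors such as IRF9 and IRF1 recognise, and the gamma-activated site (GAS), which is named for its response to interferon gamma.

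The 3 Gbp genes lie next to each other on the plus strand of chromosome 3 (build GRCm38): Gbp7 (ENSMUSG00000040253) at chr3:142530342-142550149, Gbp3 (ENSMUSG00000028268) at chr3:142560026-142573209 and Gbp2 (ENSMUSG00000028270) at chr3:142620602-142638008. Igtp (ENSMUSG00000078853) lies at chr11:58199556-58207591 and Irgm2 (ENSMUSG00000069874) at chr11:58199618-58222782 on the same strand. Their annotated spans overlap by 7974 bases. Irgm1 (ENSMUSG00000046879), on the minus strand at chr11:48861968-48871683, and Ifi47 (ENSMUSG00000078920), on the plus strand at chr11:49076587-49096974, lie on the same chromosome. Mx1 (ENSMUSG00000000386) at chr16:97447035-97462907 and Mx2 (ENSMUSG00000023341) at chr16:97535308-97560900 are on opposite strands. Iigp1 (ENSMUSG00000054072) lies apart from the others. All are annotated as protein-coding genes except Mx2, a polymorphic pseudogene in GENCODE M21.

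Promoters are shown because the members moved together. RefSeq promoter windows (GRCm38.p6), from 250 bases before to 50 bases after a start site, were used for 7 of the 10 members. Windows of the chromosome that holds Iigp1 were left out, and none was found for Mx1 and Mx2. The ISRE letters, 2 copies of GAAA with any 2 bases between them, were in the window of 6 of these 7, all but Ifi47, on one strand or the other. The GAS letters, TTCNNNGAA, were in 3 of the 7, those of Gbp7, Igtp and Irgm2, each beside an ISRE. Among 32851 promoter windows of the same length, with the chromosome of Iigp1 left out, 3.44% held the ISRE letters, 8.3% the GAS letters and 0.454% both. Gbp3 has a second window, with neither, whose start (base 142560356) lies nearest to that of the transcript Gbp3-202 (base 142560411). Most Gbp3 reads were assigned to that transcript. The Gbp3 window counted above and printed below has its start at base 142560044. The Ifi47 window has its start at base 49076587, where the transcript Ifi47-202 begins. That transcript held nearly all Ifi47 reads of Tu-primed libraries. All Ifi47 reads of parental libraries were assigned to Ifi47-204, which begins at base 49088264 and whose start was not searched. Each line below gives, on the strand of the gene, the 100 bases from 110 to 11 bases before the start, with the letters that match either motif in capitals.
Gbp2: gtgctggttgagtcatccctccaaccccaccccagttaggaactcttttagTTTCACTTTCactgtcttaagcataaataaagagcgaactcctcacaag
Gbp3: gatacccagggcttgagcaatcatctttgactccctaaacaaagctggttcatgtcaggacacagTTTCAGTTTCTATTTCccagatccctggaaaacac
Gbp7: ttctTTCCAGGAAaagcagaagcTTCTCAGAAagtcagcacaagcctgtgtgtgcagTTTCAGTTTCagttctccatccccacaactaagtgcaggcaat
Igtp: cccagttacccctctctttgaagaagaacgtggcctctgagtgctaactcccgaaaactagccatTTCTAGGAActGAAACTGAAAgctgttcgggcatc
Irgm1: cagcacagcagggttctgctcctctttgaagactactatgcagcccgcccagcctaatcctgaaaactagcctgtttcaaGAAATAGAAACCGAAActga
Irgm2: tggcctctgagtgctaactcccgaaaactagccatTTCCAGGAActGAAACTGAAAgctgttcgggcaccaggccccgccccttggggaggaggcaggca

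In the Gbp genes the ISRE letters read on the strand opposite to the gene, beginning 59 bases before the start of Gbp2, 45 and 39 bases before that of Gbp3 (an overlapping pair) and 53 bases before that of Gbp7. In the IRGM genes they read on the gene's own strand, beginning 34 bases before the start of Igtp, 30 and 24 bases before that of Irgm1 (again an overlapping pair) and 64 bases before that of Irgm2. The windows of Igtp and Irgm2 were 68.1% identical over 270 aligned bases, with an unbroken shared run of 61 bases, and in both the GAS letters stood just before the ISRE letters. The start that RefSeq gives for Irgm2 is base 58214977, inside the span that GENCODE gives the gene, whose start is 62 bases after that of Igtp. Most Irgm2 reads in Tu-primed libraries (77.3%) were assigned to Irgm2-201, which begins at base 58199618 and not at the printed window. A match of letters describes the sequence and does not show that a factor bound there.

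Library totals ran from 24566183 to 31637755 reads. The cell line was checked against marker genes of mammary epithelium, of which 9 of 10 passed the filter (Krt5 had no read in any library), with summed levels of 1916 to 2351 CPM in Tu-primed, 2406 to 2595 in Spl-primed and 2675 to 3989 in parental libraries. Between the primed groups edgeR and limma called 0 of the 9 and DESeq2 called 1 lower, while 5 had an unadjusted p under 0.05 in edgeR. CPM is the read count of a gene scaled to a common library depth. Of 21 marker genes of granulocytes and other myeloid cells, 7 had no read in any library (Mpo, Elane, Camp, Ngp, Retnlg, Adgre1 and Tyrobp), and 4 were tested, of which 0 were called between the primed groups by edgeR, DESeq2 or limma and 0 had an unadjusted p under 0.05. The summed level of that list was 247 to 275 CPM in Tu-primed, 263 to 272 in Spl-primed and 203 to 232 in parental libraries. That sum was mostly Itgb2 (4189 to 7408 reads in a library) and Lcp1 (643 to 910), which parental cells also had. Cxcr2 and Cd68 had 41 to 114 reads in a library. The other markers with reads, Ptprc and Ly6g among them, had at most 12 in any library, so the sum says little about myeloid RNA. Lymphocyte markers summed to at most 0.843 CPM, with 5 of 8 at 0 in every library. Of 8 markers of fibroblasts and endothelium, 3 were at 0 throughout and only Pdgfra was tested. It was higher in the Tu-primed than in the Spl-primed libraries by 0.62 on the log2 scale (adjusted p = 0.00529), and the summed level of this list was 76.5 to 98.3 CPM in Tu-primed, 42.8 to 67.2 in Spl-primed and 42.8 to 56.0 in parental libraries. Whether that list has a part in the results below was not tested.

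The first comparison asks how 4T1 cells primed by tumor Gr1+ cells differ from those primed by spleen Gr1+ cells. Every member was higher in the Tu-primed libraries, from a 2.95-fold difference for Gbp2 to a 13.6-fold difference for Irgm2 among the members with enough reads in both groups. The 7 members that passed the filter on low counts without help from the Tu-primed libraries were all called higher at an adjusted p under 0.05, with a median log2 fold change of 2.59 beside -0.01 over all genes tested. Over all 12550 genes, 585 or 4.66% were called higher. In each of the 7 members the lowest Tu-primed library also lay above the highest Spl-primed library, which held for 8.52% of genes. Iigp1, Mx1 and Mx2 passed the filter only because of the Tu-primed libraries. Their calls were thus bound to come out in this direction, and these 3 genes add nothing to either count.

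Among the guanylate-binding proteins, Gbp2, one of those that coat vacuoles, read 34.9, 29.6, 26.5 and 16.4 CPM in Tu-primed replicates 1 to 4, against 8.76, 8.90, 7.30 and 11.3 in the Spl-primed and 10.8, 10.7, 10.6 and 12.3 in the parental replicates. The Tu-primed libraries lay above all others, while the Spl-primed and parental ones overlapped. The difference between the primed groups was 1.56 on the log2 scale (SE 0.187, adjusted p = 0.000132), the smallest of the members. Gbp3 read 37.9, 25.8, 21.4 and 9.82 CPM in Tu-primed libraries, and all 8 other libraries lay between 2.65 and 3.44 CPM. Its log2 fold change between the primed groups was 2.97 (SE 0.31, adjusted p = 4.56e-05). Gbp7, which has 2 GAS matches and an ISRE match in the promoter printed above, read 29.7, 20.1, 18.8 and 8.57 CPM against 3.83, 3.20, 2.32 and 3.79 in the Spl-primed libraries. That is a log2 fold change of 2.55 (adjusted p = 0.000102).

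**Figure D1:**
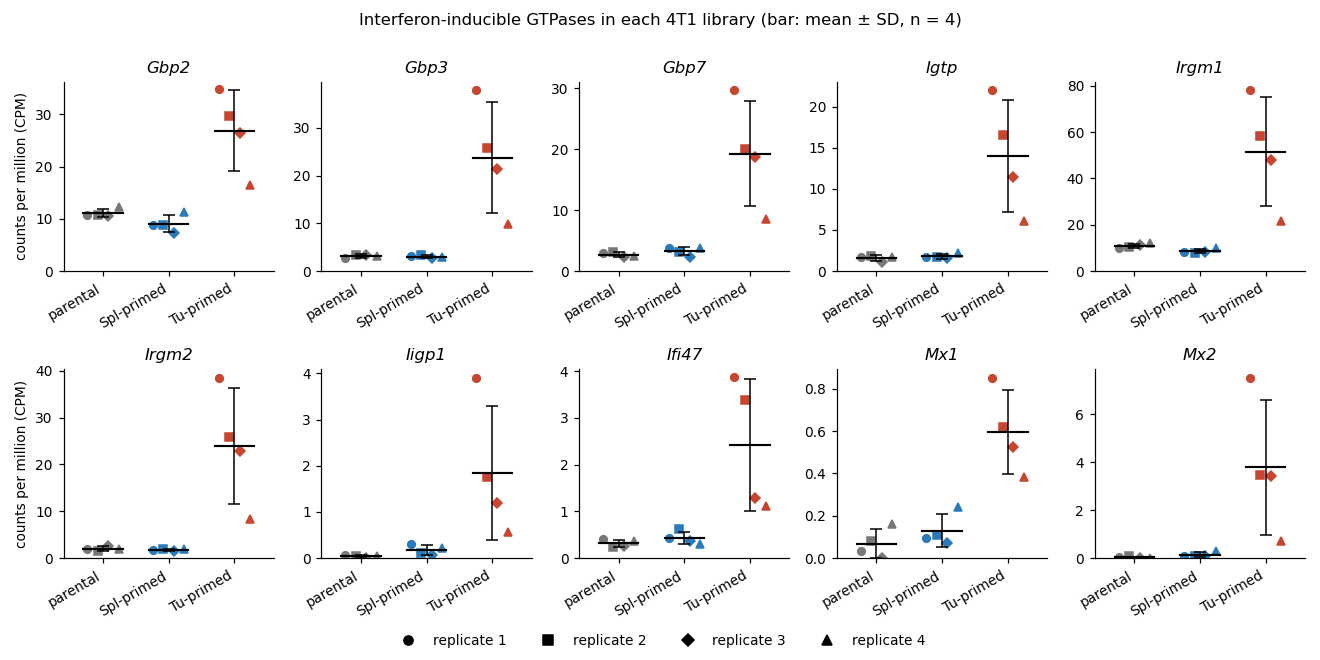
CPM (vertical axis, linear from 0, its own scale in each panel) of each member in the 4 parental, 4 Spl-primed and 4 Tu-primed libraries; symbols mark the replicate number, and black bars give the mean ± SD. Tu-primed libraries lie above all others in every panel, with replicate 1 highest and replicate 4 lowest.

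The IRGM regulators followed the same order of groups. Irgm1, whose loss in mice impairs defence against intracellular bacteria, read 78.2, 58.3, 48.1 and 21.7 CPM in the Tu-primed replicates, 8.41, 7.85, 8.17 and 9.78 in the Spl-primed and 9.91 to 11.9 in the parental ones. It differed between the primed groups by 2.59 on the log2 scale (SE 0.28, adjusted p = 6.19e-05). Irgm2 read 38.5, 25.9, 22.9 and 8.33 CPM in Tu-primed libraries and never above 2.64 CPM in the others. Its log2 fold change was 3.77 (SE 0.373, adjusted p = 3.44e-05), and its 95% interval ran from 7.81-fold to 23.7-fold. Igtp, its neighbour, read 22.0, 16.5, 11.4 and 6.07 CPM against 1.56 to 2.16 CPM in the Spl-primed libraries, a log2 fold change of 2.97 (adjusted p = 6.79e-05). Reads from the stretch that Igtp and Irgm2 share in the annotation were divided between them by the authors' quantification, so the split between these neighbours is less certain than their sum.

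The effector immunity-related GTPases had few reads. Ifi47 (Irgd), which had no ISRE match in its window, read 3.87, 3.38, 1.29 and 1.11 CPM in Tu-primed libraries, from 109, 87, 37 and 32 reads, against 0.313 to 0.618 CPM in the Spl-primed libraries. The log2 fold change was 2.46 (SE 0.412, adjusted p = 0.00184). Its span is shared with Olfr56 on the same strand, a gene that had 21 reads over all libraries. Iigp1, an effector, had 110, 45, 34 and 16 reads in the Tu-primed libraries and 10, 3, 2 and 6 in the Spl-primed ones, or 10.1 times as many at equal depth (95% counting interval 6.46 to 16.7). The fitted log2 fold change was 3.33 (adjusted p = 0.00273), and 2.65 without Tu-primed replicate 1.

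Mx1 had the fewest reads of the members in Tu-primed cells. It had 24, 16, 15 and 11 reads in Tu-primed and 3, 3, 2 and 7 in Spl-primed libraries, a ratio of 4.57 (95% counting interval 2.58 to 8.62). Its fitted log2 fold change was 2.16 (adjusted p = 0.0128), and without Tu-primed replicate 1 it was 1.93 and no longer passed the threshold (adjusted p = 0.0535). Mx2 had 212, 89, 98 and 21 reads against 3, 2, 3 and 9, a ratio of 25.7 (15.8 to 44.5), the widest of the members. The fitted value was 4.64 (SE 0.668, adjusted p = 0.000578), and 5.29 without Spl-primed replicate 4. Counting intervals here cover counting error only.

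**Figure D2:**
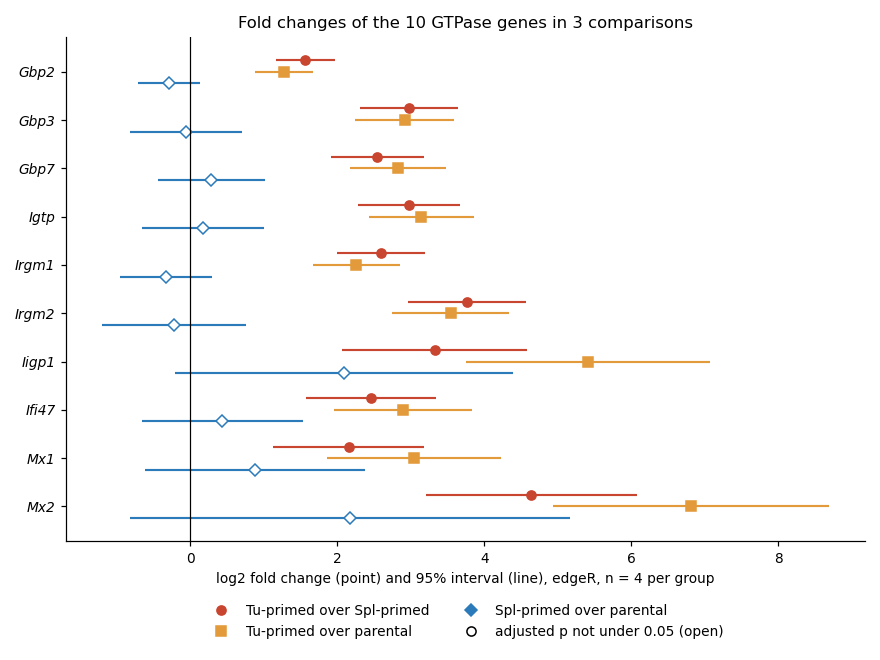
Log2 fold change (horizontal axis) of each member in the 3 comparisons, with points for the edgeR estimate, lines for its 95% interval and open symbols where the adjusted p was not under 0.05. Both comparisons with the Tu-primed group lie right of 0 for every member, while all intervals of Spl-primed over parental cells include 0.

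Against parental 4T1, Tu-primed cells again had more of every member. The 7 members that passed the filter without the Tu-primed libraries were all called higher, with a median log2 fold change of 2.90 beside 0.02 over all genes. This comparison moved much of the transcriptome: 31.2% of the genes tested were called higher, and 28.6% were higher with groups that did not overlap, as those 7 members were. The 2 comparisons share the Tu-primed libraries and are not independent of each other. Gbp2 was 2.42-fold higher (log2 1.27, SE 0.185, adjusted p = 5.64e-05), Gbp3 7.55-fold and Gbp7 7.11-fold. Irgm1 was 4.79-fold higher, Igtp 8.83-fold and Irgm2 11.7-fold (log2 3.54, adjusted p = 3.92e-06). Ifi47 had 265 reads in the 4 Tu-primed and 33 in the 4 parental libraries, a ratio of 7.41 (95% counting interval 5.15 to 11).

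Iigp1 and the Mx genes were close to absent from parental cells. Iigp1 had 2, 1, 0 and 1 reads there and 205 in the 4 Tu-primed libraries together, a ratio of 47.3 with a counting interval of 18.2 to 175. Mx2 had 1, 2, 0 and 0 reads against 420, a ratio of 129 with an interval of 43.9 to 629. Mx1 had 1, 2, 0 and 4 reads, which gives 8.71 (4 to 22.5). A library with 0 reads of a gene allows up to 3, which is at most 0.126 CPM at these depths. The fitted log2 fold changes of Iigp1 (5.42), Mx2 (6.81) and Mx1 (3.04) rest on these few reads. They became 4.75 for Iigp1 without Tu-primed replicate 1, 7.78 for Mx2 without parental replicate 2, and 3.79 for Mx1 without parental replicate 4. With limma on the deposited values they were 4.34 for Iigp1 and 5.48 for Mx2.

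The comparison of Spl-primed with parental cells asks what spleen Gr1+ cells do to the members. In edgeR 0 of the 10 members were called in Spl-primed against parental cells, and 0 had an unadjusted p under 0.05, although 25.7% of all genes were called higher and 22.5% lower. DESeq2 called 1 member, Iigp1, and limma on the deposited values 0. The 95% intervals of the fold were 0.613 to 1.09 for Gbp2, 0.514 to 1.23 for Irgm1, 0.566 to 1.64 for Gbp3 and 0.634 to 2.00 for Igtp, and the folds of these genes in Tu-primed over parental cells lie outside them. For Mx2 the interval ran from 0.565 to 35.8 and a change could not be detected at this depth. Over all genes tested, 21.3% were higher and 18.3% lower in Spl-primed cells with groups that did not overlap. Irgm1 is one member whose groups did not overlap, with every Spl-primed library (at most 9.78 CPM) below every parental one (at least 9.91). Its log2 difference was -0.33 (adjusted p = 0.369) in the fit of all 12 libraries, where the spread of the Tu-primed libraries enters the error, and -0.34 (adjusted p = 0.017) when only the 8 libraries compared were fitted. Iigp1 is the other, with 21 reads in Spl-primed and 4 in parental libraries, a ratio of 4.67 (95% counting interval 1.57 to 18.7). Its adjusted p was 0.121 in edgeR and 0.0428 in DESeq2.

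The Tu-primed libraries spread widely in the members, and the members moved together. Replicate 1 was the highest and replicate 4 the lowest of the 4 for 10 of 10 members. Replicate 1 was the highest for 21.6% of all genes tested, and replicate 4 the lowest for 30.6%. The ratio of the highest to the lowest Tu-primed library was 2.13 for Gbp2, 2.23 for Mx1, 3.46 for Gbp7, 4.63 for Irgm2 and 10.3 for Mx2, where the median over all genes was 1.15. Even so, replicate 4 lay above the highest Spl-primed library for each member, by 1.44 times for Gbp2, 2.97 times for Gbp3 and 4.28 times for Irgm2. The summed myeloid markers, mostly Itgb2, were 265, 263, 247 and 275 CPM in Tu-primed replicates 1 to 4. The summed epithelial markers were 1947, 2017, 1916 and 2351 CPM. Replicate 4, the lowest for the members, was thus the highest of the group for both lists, and whether either has a part in the spread was not tested.

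**Figure D3:**
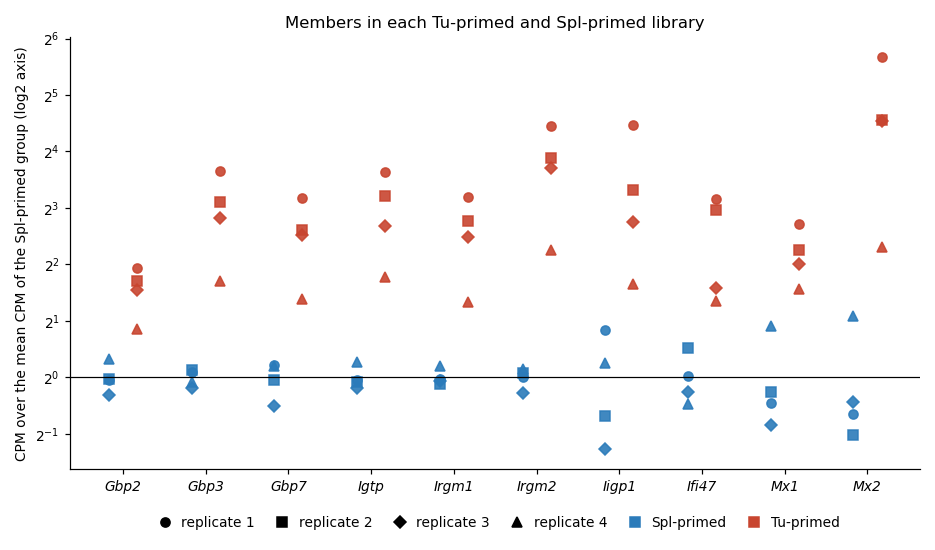
CPM of each member in each Spl-primed (blue) and Tu-primed (red) library, divided by the mean of the Spl-primed group (vertical axis, log2); symbols mark the replicate number. The replicates of the Tu-primed group keep 1 at the top and 4 at the bottom for all members. In the Spl-primed group replicate 3 is lowest for 7 members and replicate 4 highest for 6.

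Members of one family did not move by equal amounts. The ratio of 2 genes within a library does not depend on how libraries are scaled, and 12 such comparisons could be tested with an exact two-sided permutation test, of which 10 had an adjusted p of 0.0343. The smallest p that 4 against 4 libraries allow is 0.0286. Gbp3 counts were 0.600 to 1.09 times those of Gbp2 in the Tu-primed libraries, 0.252 to 0.371 times in the Spl-primed and 0.249 to 0.325 times in the parental ones. The mean log2 ratio was 1.30 higher in Tu-primed than in Spl-primed cells, and 0.24 higher in Spl-primed than in parental cells (exact permutation p = 0.171, adjusted p = 0.187). Gbp7 rose against Gbp2 from group to group, with ratios of 0.197 to 0.297 in parental, 0.318 to 0.437 in Spl-primed and 0.523 to 0.852 in Tu-primed libraries, and all 3 of its comparisons passed.

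Within the IRGM genes, Irgm2 counts were 0.385 to 0.493 times those of Irgm1 in the Tu-primed and 0.178 to 0.236 times in the Spl-primed libraries, a log2 difference of 1.13. Between Spl-primed and parental libraries this ratio differed by 0.13 (exact permutation p = 0.429). Igtp changed less against Irgm1, by 0.38 between the primed groups, with ratios of 0.237 to 0.283 in Tu-primed and 0.191 to 0.221 in Spl-primed libraries. In parental libraries the ratio was 0.0951 to 0.177, below every Spl-primed library (log2 difference 0.53, exact permutation p = 0.0286, adjusted p = 0.0343). Ratios that involve Ifi47, Iigp1 or the Mx genes were not tested, because a library in each of those comparisons had fewer than 10 counts of one gene.

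**Figure D4:**
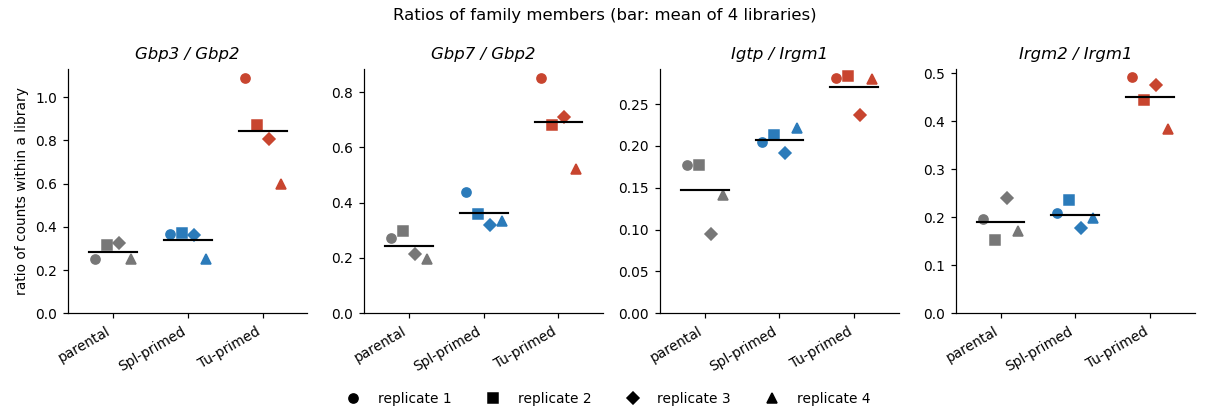
Ratio of the counts of 2 family members within each library (vertical axis, from 0) in parental, Spl-primed and Tu-primed cells; symbols mark the replicate number and bars the mean. The Tu-primed libraries lie above the other groups for all 4 pairs, and the step from Spl-primed to Tu-primed is smallest for Igtp over Irgm1.

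Levels of different genes were compared in TPM, which is scaled by both library depth and transcript length. In Tu-primed cells Irgm1 led with 36.6 ± 16.4 TPM (mean ± SD, n = 4), followed by Gbp2 with 16.2 ± 4.62, Gbp3 with 14.3 ± 6.77, Igtp with 10.8 ± 5.22 and Irgm2 with 10.1 ± 5.2. Gbp7 (5.35 ± 2.27), Mx2 (4.18 ± 3.78), Ifi47 (2.19 ± 1.25), Iigp1 (0.996 ± 0.795) and Mx1 (0.545 ± 0.225) came after. The ranges of each gene and the next in this order overlapped over the group. Library by library, Irgm1 lay above Gbp2, Gbp3 above Igtp, Irgm2 above Gbp7 and Ifi47 above Iigp1 in 4 of 4, and the other neighbours changed places in at least 1 library. Parental cells had a clearer order at the top: Irgm1 (5.61 ± 0.149 TPM) lay above Gbp2 (4.86 ± 0.349) in all 4 libraries, and Gbp2 above Gbp3 (1.42 ± 0.417). Igtp, Irgm2 and Gbp7 followed at 0.910, 0.626 and 0.569 TPM with overlapping ranges, then Ifi47 at 0.220 TPM, and Mx1, Mx2 and Iigp1 each at or under 0.0413 TPM. In Spl-primed cells the levels of Irgm1 (5.83 ± 0.648 TPM) and Gbp2 (5.53 ± 1.27) overlapped. By TPM the highest Mx1 value of the Tu-primed group was in replicate 3 (0.857), whereas by CPM it was in replicate 1.

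The authors' quantification assigned reads to transcripts, and for some members the transcript matters. Reads of Mx2 in Tu-primed libraries fell mostly on Mx2-202, annotated as a polymorphic pseudogene form, with 81.0% of the gene's reads and a part in all 4 libraries. Only 3.46% of Mx2 reads over all libraries were on a transcript annotated as protein-coding. For Mx1 that share was 79.8%, the rest being forms annotated as nonsense-mediated decay or as processed transcripts. For the other members it was 98.8% or more. Gbp3 reads were mostly on Gbp3-202 (72.2% in Tu-primed, 67.1% in Spl-primed and 89.0% in parental libraries), and Irgm1 reads were divided between Irgm1-201 and Irgm1-202 (52.5% and 47.1% in Tu-primed). Irgm2 reads in Tu-primed libraries were 77.3% on Irgm2-201 and 22.7% on Irgm2-203, which begins at base 58215008, near the printed window. In Spl-primed libraries they were 55.2% on Irgm2-201 and 44.8% on Irgm2-202. Ifi47 reads in Tu-primed cells were nearly all on Ifi47-202 (99.2%), and in parental cells all 33 were on Ifi47-204. Such shares are estimates that rest on few distinguishing reads, and they were not tested.

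The genes whose pattern was most like that of the members were sought by the Pearson correlation of their log2 CPM with the mean log2 CPM of the members over the 12 libraries, which share 3 groups. The 5 nearest were Parp9 (r = 0.997) and Parp14 (r = 0.994), ADP-ribosyltransferase family members known as interferon-stimulated genes, Ifi203 (r = 0.995), a PYHIN family member, Rtp4 (r = 0.993), a zinc finger protein induced by interferon, and Eif2ak2 (r = 0.993), the RNA-activated kinase PKR. Each member's own correlation with the mean of which it is a part ran from 0.930 for Mx1 to 0.996 for Igtp. These values describe likeness and carry no test.

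The relatives of the members did not all behave as they did. Of 8 other guanylate-binding proteins, 6 were tested. Of these, 4 passed the filter on low counts without the Tu-primed libraries, and all 4 were higher in Tu-primed than in Spl-primed cells, with a median log2 fold change of 2.04 beside -0.01 over all genes. Gbp5 and Gbp10 passed only through the Tu-primed libraries, so their calls could come out in 1 direction only. Gbp9 rose from 10.7 to 48.4 CPM (log2 2.17, adjusted p = 4.56e-05), Gbp2b, the mouse GBP1, from 6.24 to 17.6 CPM and Gbp4 from 1.41 to 5.26 CPM. Reads that fit several Gbp genes equally were divided by estimation, so the split among these close copies is uncertain. Of 11 other immunity-related GTPases, 4 had enough reads and 1 was called higher. That was Tgtp2, an effector with a near-identical copy, Tgtp1, which was not tested (log2 2.78, adjusted p = 0.033, with 27 reads at most in a library). It passed the filter only through the Tu-primed libraries, which fixes the direction of its call, and of the 3 that passed without them 0 were called by edgeR, DESeq2 or limma and 0 had an unadjusted p under 0.05. The values of 9930111J21Rik2 (log2 0.26, adjusted p = 0.535) and Irgq (0.07, adjusted p = 0.639), a quasi-GTPase outside the inducible group, did not pass. The rest of this list had too few reads to be tested. Among them Tgtp1 read 0.347 to 1.94 CPM in Tu-primed and at most 0.0942 in Spl-primed libraries. Of the untested genes some were higher and some lower in Tu-primed cells on average, so these 3 genes do not describe the whole list.

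Of the very large inducible GTPases, a family of giant relatives, 2 of 5 were tested. Gm4070 rose from 44.4 to 140 CPM (log2 1.65, adjusted p = 0.000685), and Gm8995 read 346 against 245 CPM and missed the threshold (adjusted p = 0.0553). Dynamins, mitofusins and atlastins share the fold of the Mx and GBP proteins but serve the cell's own membranes. Of 10, 9 were tested and 0 were called between the primed groups by edgeR, DESeq2 or limma, with 3 at an unadjusted p under 0.05 and a median log2 fold change of 0.04. Those with the smallest p were Atl1 (0.28), Dnm1 (0.18) and Mfn2 (-0.13), with adjusted p of 0.168, 0.188 and 0.204.

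Of 20 genes for interferon receptors and their signaling, 19 were tested, of which edgeR called 9 higher in Tu-primed than in Spl-primed cells and 0 lower (median log2 0.28), and DESeq2 called 10 higher and 1 lower. Irf9, a DNA-binding factor that recognises the ISRE, rose from 7.11 to 46.3 CPM (log2 2.70, SE 0.20, adjusted p = 4.69e-06), and Stat2, its partner in type I interferon signaling, from 15.4 to 58.9 CPM (1.93, adjusted p = 3.9e-05). Irf1, which binds the same letters, differed by 0.32 (adjusted p = 0.00553), from 39.6 to 49.5 CPM. Stat3, the factor downstream of the IL-6 family, rose from 73.0 to 158 CPM (1.12, adjusted p = 9.7e-06), and Irf7, the amplifier of type I interferon genes, from 1.99 to 40.2 CPM (4.33, adjusted p = 2.42e-05). Of 11 interferon ligand genes looked at, 7 had no read in any library, Ifng among them, and none of the others had more than 2 reads in a library. The 11 do not include every mouse interferon gene.

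Lists of genes that lean on one interferon type moved by different amounts. Of 15 genes that lean on type I interferon, 14 passed the filter without the Tu-primed libraries and 13 of these were higher in Tu-primed than in Spl-primed cells, with a median log2 fold change of 3.12. Oas2 passed only through the Tu-primed libraries. Rtp4 rose from 2.25 to 32.6 CPM (log2 3.85, adjusted p = 1.43e-05), Oas1a, an RNA-sensing synthetase, from 1.90 to 32.9 CPM and Xaf1 from 1.23 to 18.0 CPM. Of 17 genes that lean on interferon gamma, 13 were tested. Of these, 12 passed the filter without the Tu-primed libraries and 6 of the 12 were higher, with a median of 0.63. Ciita passed only through the Tu-primed libraries and was not called. Psmb8, an immunoproteasome subunit, rose from 10.8 to 26.6 CPM (log2 1.30, adjusted p = 0.000198), Tap1, a peptide transporter, from 3.56 to 9.32 CPM, and Tapbp, its partner, from 102 to 147 CPM. This list shares Irf1, Irf8, Nlrc5, Ciita and Socs1 with the signaling list. The difference between the lists was not tested, and most genes of either list respond to both interferon types.

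**Figure D5:**
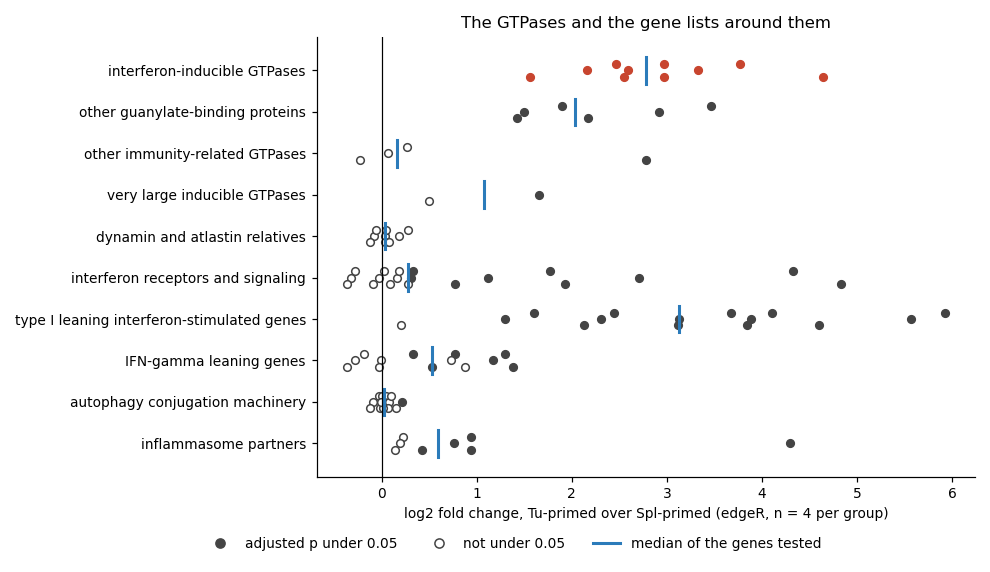
Log2 fold change of Tu-primed over Spl-primed cells (horizontal axis) for the members (red) and for each tested gene of 9 other lists, with filled points for an adjusted p under 0.05 and a blue line at each median. The members' median is 2.78, beside 3.13 for the type I leaning genes, 2.04 for the other guanylate-binding proteins and 0.04 for the dynamin and atlastin relatives; 3 of the members, and Gbp5, Gbp10, Tgtp2, Oas2 and Ciita of the lists, were tested only because of the Tu-primed libraries.

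Genes linked to the work of GBPs and immunity-related GTPases were measured as well. The autophagy conjugation machinery sets where GBPs and immunity-related GTPases load. Of its 14 genes, all tested, 1 was called, with a median log2 fold change of 0.02. Map1lc3b rose by 0.21 (adjusted p = 0.0272), while Sqstm1 (-0.13, adjusted p = 0.288) and Gabarap (0.09, adjusted p = 0.457) did not pass. Of 11 inflammasome genes, on which GBPs act, 8 were tested and 5 were higher in Tu-primed than in Spl-primed cells (median log2 0.59). Zbp1, a nucleic acid sensor, rose from 0.532 to 10.5 CPM (log2 4.30, adjusted p = 0.000132), Casp4 (caspase-11), the sensor of bacterial lipopolysaccharide, from 5.08 to 9.71 CPM (0.93, adjusted p = 0.000685) and Casp1 from 30.1 to 40.3 CPM (0.42, adjusted p = 0.00637). Pycard, the adaptor that links sensors to caspase-1, had no read in any library.

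Spleen priming moved part of this surrounding machinery, though it called none of the members in edgeR. Of the 19 signaling genes tested, 9 were higher and 1 lower in Spl-primed than in parental cells. Irf9 was 0.80 higher on the log2 scale (adjusted p = 0.0108), Stat2 0.67 higher (adjusted p = 0.0179), Irf1 0.56 higher (adjusted p = 2.04e-05), and Stat3 0.31 higher (adjusted p = 0.011). Of the 6 other guanylate-binding proteins tested, 1 was called, Gbp9, at 10.7 against 6.34 CPM (log2 0.76, adjusted p = 0.0203). Of the 15 type I leaning genes, edgeR called 0 higher and 1 lower, with 1 at an unadjusted p under 0.05. DESeq2 called 1 higher and 1 lower, and limma 0 either way. The values of Rtp4 (0.43, adjusted p = 0.439), Oas1a (-0.09, adjusted p = 0.898) and Xaf1 (0.00, adjusted p = 0.997) did not pass. Against these stand 25.7% of all genes called higher and 22.5% called lower.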

How the data were processed

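RNA-seq of 12 bulk libraries was analysed, 4 each of Tu-primed, Spl-primed and parental 4T1 cells, grouped by the labels. Per the labels and the submitters' processing notes, RNA was extracted from cells lysed in the well, libraries were made with a stranded kit, reads were checked with FastQC, trimmed with Trimmomatic 0.39 and quantified with Salmon 1.4.0 against mouse transcripts (GRCm38, mm10). The authors deposited, for each library, the estimated counts, TPM and effective lengths of transcripts. They also deposited a table of normalized values (signal) for 17447 genes, whose method is not given in the sources used here, and this table was used only as an alternative.

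For each gene of GENCODE M21, the estimated counts of its transcripts were added up and rounded to whole numbers, and TPM were added up likewise. Transcripts outside that annotation held 0.333 to 0.434% of reads. Genes were filtered with filterByExpr, leaving 12550, scaled by TMM (factors 0.88 to 1.053) and tested with edgeR 4.0.16 (quasi-likelihood test, Benjamini-Hochberg over all genes tested, threshold 0.05) in 1 fit of all 12 libraries, with R 4.3.3. CPM use the TMM-scaled library sizes. No pair of libraries of a group agreed within sampling noise, the lowest chi-square over its degrees of freedom being 3.5. Ratios within a library were tested by exact two-sided permutation, with at least 10 counts of both genes in every library. Counting intervals are exact 95% intervals of the ratio of summed reads. Likeness used log2 CPM with a prior count of 2.

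The 10 members, the gene lists and the markers were chosen with earlier results of these data known. Beside the members, the text names Stat2, Irf1 and Irf9, at most 3 genes of each list by smallest p between the primed groups, and the 5 genes most like the members. Genes named only for having no read, for being a copy or for being shared by lists were named after their values were seen. So were the markers Pdgfra, Itgb2, Lcp1, Cxcr2, Cd68, Ptprc and Ly6g. A gene that the same rule would name is not reported here. Alternatives were DESeq2 1.42.0, RLE factors, other filters, only the libraries compared, the replicate number as a block, protein-coding transcripts only, length offsets, limma 3.58.1 on the log2 of the authors' deposited values with a pseudocount of 1, and leaving out each library.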

Additional observations from a re-analysis of the deposited data

Results flagged for a closer look

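Each member was screened in each group for a library whose gap to the nearest of the others is large beside the range of the group. Of 30 such groups 2 stood out, and chance alone picks out about 1 group in 20. Gbp2 in parental replicate 4 read 12.3 CPM, above the other parental libraries, which lay between 10.6 and 10.8 CPM. Mx2 in Spl-primed replicate 4 read 0.313 CPM, from 9 reads, above the other Spl-primed libraries, which had 2 or 3 reads each. No Tu-primed library met this rule for any member, although replicates 1 and 4 were the extremes throughout.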

How the results depend on the processing

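All 10 members were called higher in Tu-primed cells, against Spl-primed and against parental cells, with DESeq2, RLE factors, no filter, only the libraries compared, length offsets, the deposited values and the replicate block. In this and the other counts of Tu-primed calls, Iigp1, Mx1 and Mx2 add nothing. They passed the main filter only because of the Tu-primed libraries. Over all genes, DESeq2 called 803 of 12550 higher between the primed groups, RLE factors 617, only the libraries compared 658 of 12476 and the block 489. Against parental cells these counts were 3798, 3785, 3905 of 12319 and 3803. They were 3860 of 18675 there without a filter, 3217 with length offsets and 3135 of 12545 with the deposited values. With at least 10 counts in every library, the count of members was 6 in both comparisons, since Iigp1, Ifi47, Mx1 and Mx2 were then not tested. Of 11581 genes, 571 were then called higher between the primed groups and 3722 against parental cells. With protein-coding transcripts only the count of members was 8, since the Mx genes were not tested. Of 11821 genes, 486 were then called higher between the primed groups and 3339 against parental cells. Leaving out 1 library gave 9 to 10 members between the primed groups (Mx1 was lost without Tu-primed replicate 1) and 10 to 10 against parental cells. Over all genes it gave 402 to 662 higher between the primed groups and 3511 to 4170 against parental cells. For Spl-primed against parental cells, the count of 0 became 1 with DESeq2, with only the 8 libraries compared and with the replicate block, and leaving out 1 library gave 0 to 1. Over all genes in that comparison, DESeq2 called 3051 higher and 3270 lower of 12550. The 8 libraries gave 2789 and 2599 of 12270, and the block 3076 and 2700 of 12550. Leaving out 1 library gave 2757 to 3379 higher and 2381 to 3267 lower. The member called was Irgm1 with the 8 libraries and Iigp1 in the other cases (log2 2.16, adjusted p = 0.0309 with the block, and adjusted p = 0.0447 without Tu-primed replicate 1). Gbp3 in that comparison, -0.06 as reported, was 0.11 with the deposited values and 0.16 with length offsets, and it was not called in any of them. The cause was not tested. Replicate numbers did not pair the libraries: 2 of 12 pairs with the same number had a correlation of their deviations above 0.1, and the block moved no other call of a member. Over all genes, 585 higher and 372 lower calls between the primed groups became 342 and 122 with the deposited values, 352 and 146 with length offsets, 606 and 255 without a filter, and 402 to 662 higher and 118 to 531 lower when 1 library was left out. Of the lists, with limma on the deposited values 2 other guanylate-binding proteins were called higher between the primed groups (6 in edgeR), 6 signaling genes (9), 3 genes that lean on interferon gamma (6) and 3 inflammasome genes (5). With length offsets Mx1 between the primed groups was 2.76 in place of 2.16. The few reads of Iigp1, Mx1 and Mx2 limit their fold changes.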
